A study of Mus musculus with 5 samples.

Results

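The genes described here are 8 markers of secretory airway cells, the club cells and related cells that line the conducting airways of the mouse lung. They were chosen by name, with earlier results of these data known: Scgb3a2, Scgb1a1, Cyp2f2, Aldh1a7, Muc1, Lypd2, Hp and Upk3a. Of these 8, 7 had a row among the 19699 gene entries of the FPKM table (read counts scaled by gene length and library size), and no row carried the name Scgb1a1. On GRCm38 the other genes lie on chromosome 18 (Scgb3a2), chromosome 7 at 27119909 to 27133660 (Cyp2f2), chromosome 19 at 20692953 to 20727562 (Aldh1a7) and chromosome 3 at 89229057 to 89233381 (Muc1). Hp lies on chromosome 8 at 109575128 to 109579172, and Lypd2 and Upk3a lie on chromosome 15 at 74732247 to 74734329 and 85017141 to 85022547. The tissue was airway of E13.5 mouse embryos, cut so that trachea, main airways and lung were all included. The 2 mutant libraries came from embryos whose genotype the design text gives as Shh with Prmt5. Their genotype label reads Prmt5 knockdown, and the growth protocol speaks of C57 mice with a knockout in lung epithelial cells. The 3 control libraries are labelled WT and came from littermates. What stands for Shh in the mutant genotype, such as a Cre driver at that locus, is not given in the sources used here. A difference between the groups can thus not be assigned to Prmt5 alone. The labels do not tell how many embryos went into a library, so p-values measure the spread between libraries, which may be technical in part.

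Secretory cells of the airway make secreted and membrane proteins that coat and protect the epithelium, and in the mouse they carry enzymes that process inhaled compounds. They arise from Sox2-expressing cells of the conducting airway, and Notch signalling favours the secretory over the ciliated fate. At this stage the airway is still immature, so the markers are read here as early traces of that cell class. In bulk RNA, fewer cells of a type and less RNA per cell cannot be told apart.

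The libraries held 15756526 and 15652503 reads in the mutants, and 18682463, 16305922 and 18219269 reads in the controls, as recovered from the steps between FPKM values. Sex make-up differed with genotype, with Xist at 0.0673 and 0.289 FPKM in the mutants against 57.3, 58.1 and 115 FPKM in the controls, and sex and genotype cannot be told apart. The Y-linked gene Ddx3y was at 12.0 and 10.8 FPKM in mutants, against 9.91, 6.70 and 2.54 FPKM in the controls, so every control library held Xist and Ddx3y RNA together, as RNA of both sexes would. Prmt5 was at 23.7 and 20.1 FPKM in mutants, against 28.7, 26.4 and 25.8 FPKM in the controls (limma adjusted p = 0.234). Nkx2-1, the factor of lung epithelium, was at 36.1 and 32.8 FPKM in mutants, against 40.2, 43.1 and 20.4 FPKM in the controls, so both groups held lung epithelium.

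Sequences are shown for 3 markers with both mutants below all controls, the called Muc1 and Aldh1a7 and the uncalled Cyp2f2. They are windows of 300 bases, 250 before and 50 after the gene start in RefSeq, on GRCm38.p6. The RefSeq start can differ from the GENCODE positions given above, and for Cyp2f2 it lies inside the span given there. They were searched on both strands for short motifs of airway factors and of the core promoter. Capitals mark every match. The Muc1 window lies at chr3:89228806-89229105 (plus strand), the Aldh1a7 window at chr19:20727507-20727806 (minus strand) and the Cyp2f2 window at chr7:27119705-27120004 (plus strand).
Muc1: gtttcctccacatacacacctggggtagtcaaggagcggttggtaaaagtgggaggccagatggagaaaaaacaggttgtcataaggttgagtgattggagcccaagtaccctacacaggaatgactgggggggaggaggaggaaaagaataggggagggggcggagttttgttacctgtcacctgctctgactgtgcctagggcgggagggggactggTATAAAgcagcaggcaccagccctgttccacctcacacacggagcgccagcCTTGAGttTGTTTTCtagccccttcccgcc
Aldh1a7: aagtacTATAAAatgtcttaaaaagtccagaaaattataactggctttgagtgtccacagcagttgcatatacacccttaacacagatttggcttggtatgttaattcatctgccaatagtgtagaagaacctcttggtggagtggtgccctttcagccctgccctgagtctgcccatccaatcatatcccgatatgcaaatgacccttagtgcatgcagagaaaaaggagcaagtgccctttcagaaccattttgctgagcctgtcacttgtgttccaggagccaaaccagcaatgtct
Cyp2f2: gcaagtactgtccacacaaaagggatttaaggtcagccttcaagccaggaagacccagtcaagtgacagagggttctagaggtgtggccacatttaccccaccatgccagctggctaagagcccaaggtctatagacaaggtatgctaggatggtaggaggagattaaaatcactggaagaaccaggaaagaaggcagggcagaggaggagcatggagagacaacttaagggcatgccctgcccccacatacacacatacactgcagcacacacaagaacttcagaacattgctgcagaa
Of 32851 such windows in the RefSeq table, 20.5% held the forkhead (FOXA) motif TGTTTNC and 15.9% the NKX2-1 motif CTCAAG. The SOX motif ATTGTT was in 10.7%, the RBPJ motif TGGGAA of Notch signalling in 25.6%, the C/EBP motif TTGCNNAA in 10.8% and the TATA box TATAAA in 13.6%. In the Muc1 window the TATA box started at position -31, and an NKX2-1 and a FOXA match lay at positions 21 and 29 after the start, with no overlap. In the Aldh1a7 window the 1 match was TATAAA at position -244, and the Cyp2f2 window held none of the 6 motifs. A match is a description of letters and not a binding site.

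Levels of the secretory markers were lower in the mutants. The 7 measured genes summed to 13.49 and 20.62 FPKM in the mutants, against 205, 81.2 and 76.5 FPKM in the controls, so the groups did not overlap. Of the 6 markers that could be tested, Aldh1a7 and Muc1 were called lower, and Scgb3a2, Lypd2, Hp and Cyp2f2 missed an adjusted p of 0.05 although both mutants lay below all 3 controls for each of them. The test was limma on log2(FPKM + 1) over all 12838 genes with at least 1 FPKM in at least 2 libraries, and this scale understates changes of low genes. Over all genes tested, 2.36% were called in either direction, 1.37% lower and 0.989% higher, while 24.4% had both mutants below all controls and 13.2% both above. The split of 176 lower and 127 higher genes became 140 lower and 151 higher with median ratio scaling, and 115 lower and 133 higher with quantile normalization. The median log2 change was -2.21 over the 6 markers tested and -0.06 over all genes tested. Of the 6, 4 (Cyp2f2, Muc1, Lypd2 and Hp) passed the filter through the controls alone, as 3.47% of all genes tested did, so a difference was built into their selection and the counts and the median are a description.

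**Figure D1:**
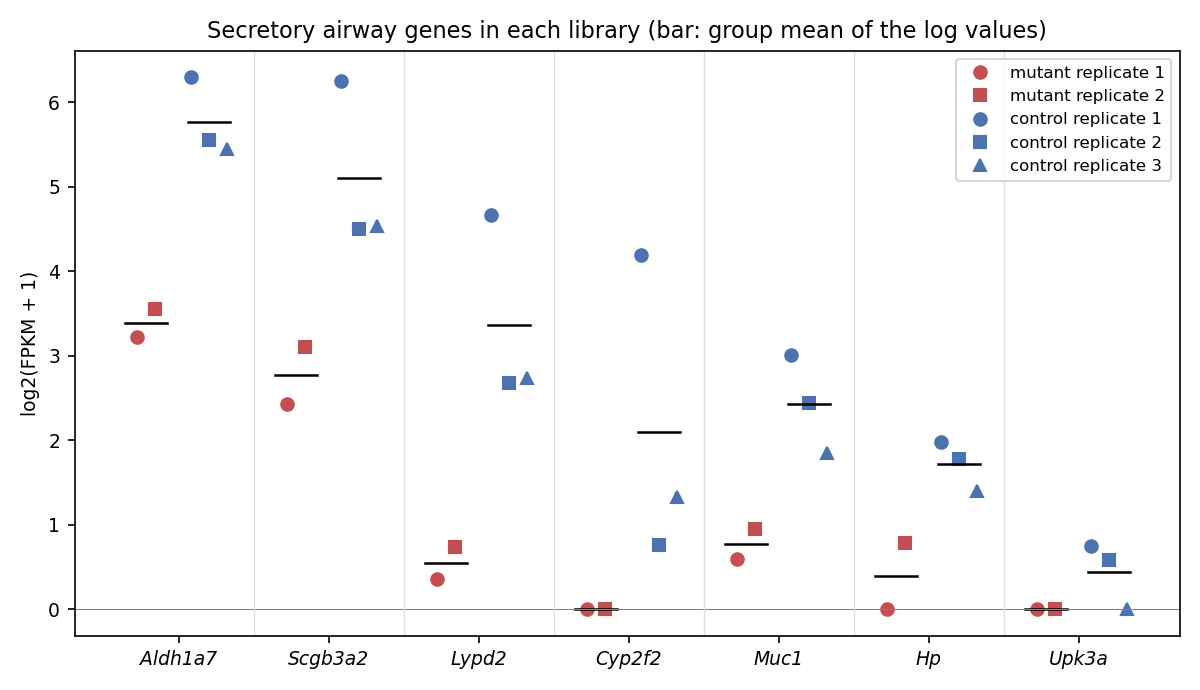
Level of the 7 measured markers in each library, as log2(FPKM + 1), with mutants left of controls and a bar at the mean of each group's log values. Control replicate 1 is the highest library for each marker, and both mutants lie below all 3 controls for every marker except Upk3a, where control replicate 3 is at 0 as well.

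The secreted proteins come first. Scgb3a2 encodes a small secretoglobin that appears early in the developing mouse airway. It was at 4.40 and 7.62 FPKM in mutants (61 and 105 reads), against 75.5, 21.6 and 22.3 FPKM in the controls (1242, 310 and 357 reads). Both mutants were low and control replicate 1 stood far above the other controls, at 3.50 times replicate 2 and 3.39 times replicate 3. The mutant mean was 6.62-fold lower, or 3.65-fold lower without control replicate 1. The log2 change was -2.33 (SE 0.51) and did not pass (limma adjusted p = 0.0668). Without control replicate 1 it was -1.75 and passed (limma adjusted p = 0.0216). A two-sided exact permutation test on FPKM gave p = 0.3, where 0.1 is the smallest p that 2 against 3 libraries allow.

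Hp encodes haptoglobin, a haemoglobin-binding plasma protein made mainly by the liver and also by club cells. It was at 0 and 0.714 FPKM in mutants (0 and 15 reads), against 2.95, 2.42 and 1.63 FPKM in the controls (74, 53 and 40 reads). The 0 of mutant replicate 1 allows up to 0.142 FPKM, the level of 3 reads, which covers counting error only. Mutant replicate 2 was also below the lowest control. The log2 change was -1.33 (SE 0.28), short of the threshold (limma adjusted p = 0.0593). A list of 9 liver plasma protein genes summed to 5.67 and 41.5 FPKM in mutants, against 7.67, 16.5 and 18.6 FPKM in the controls. The mutant library with Hp reads was also the one with the highest liver sum. In the controls, by contrast, Hp was highest where the liver sum was lowest. The part of liver RNA in Hp was not tested.

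Among the enzymes, Aldh1a7 was the most abundant marker, and it fell. It encodes an aldehyde dehydrogenase, a close relative of the retinaldehyde-oxidizing enzyme of Aldh1a1. The mutants were at 8.29 and 10.7 FPKM (270 and 346 reads), against 77.6, 46.2 and 42.8 FPKM in the controls (2994, 1555 and 1611 reads). The lowest control lay far above the higher mutant. Means were 9.50 ± 1.70 FPKM (SD, n = 2) in mutants, against 55.5 ± 19.2 FPKM (SD, n = 3) in the controls, a 5.85-fold difference, with a log2 change of -2.39 (SE 0.25, limma adjusted p = 0.0077). The adjusted p was 0.106 without mutant replicate 1 and 0.0913 without mutant replicate 2, assuming that the remaining mutant varies as the controls do, and 0.0624 with no filter on low values.

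Aldh1a7 and Aldh1a1 lie near each other on chromosome 19, Aldh1a1 at 20492715 to 20643465 (GRCm38), and their reads can be confused. Their coding sequences of 1503 bases each, from the first GENCODE M21 transcript of each gene, were identical at 1377 positions (91.6%) with no gap. The longest shared stretch is shown because reads that fall in it cannot be assigned to one gene. It spans 100 bases, from position 757 to 856 of the coding sequence:
Aldh1a7 and Aldh1a1: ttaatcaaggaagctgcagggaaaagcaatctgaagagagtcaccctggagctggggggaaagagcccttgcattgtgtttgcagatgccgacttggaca
The most different window of 100 bases, positions 879 to 978, held 21 differences, marked by capitals, which let reads be told apart.
Aldh1a7: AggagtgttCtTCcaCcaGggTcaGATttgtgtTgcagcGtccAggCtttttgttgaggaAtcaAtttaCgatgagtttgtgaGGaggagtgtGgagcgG
Aldh1a1: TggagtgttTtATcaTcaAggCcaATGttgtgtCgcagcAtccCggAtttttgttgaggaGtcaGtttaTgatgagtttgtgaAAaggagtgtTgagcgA
Aldh1a1 was at 3.62 and 6.25 FPKM in mutants, against 30.0, 9.53 and 9.81 FPKM in the controls (log2 change -1.40, SE 0.46, limma adjusted p = 0.164). Both mutants were again below all controls, but the gap to the lower controls was small. Aldh1a1 stood at 0.436 and 0.585 of the Aldh1a7 level in mutants, against 0.387, 0.206 and 0.229 of it in the controls. The ratio of the paralogs was thus not the same in all libraries, and how reads were shared between them is not given in the sources used here.

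Cyp2f2 encodes a cytochrome P450 that is typical of mouse club cells and known for activating naphthalene. It had 0 reads in both mutants, and 652, 23 and 56 reads in the controls, at 17.2, 0.697 and 1.52 FPKM. The controls themselves differed up to 24.7-fold, more than for any other marker with reads in all 3. A count of 0 allows up to 0.0940 and 0.0946 FPKM in the mutants. Over pooled reads, with a floor of 3 reads over the mutant group, the level was at least 144-fold lower, but at least 24.0-fold lower without control replicate 1. The log2 change of -2.09 (SE 0.89) did not pass (limma adjusted p = 0.262), and it is no bound on the fold. Exons of Cyp2f2 overlap those of Gm15883 on the other strand by 274 bases, and use of strand is not given in the sources used here.

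Of the membrane proteins, Muc1 encodes a mucin anchored in the apical membrane of epithelial cells. Its level was 0.514 and 0.926 FPKM in mutants (19 and 34 reads), against 7.05, 4.42 and 2.60 FPKM in the controls (309, 169 and 111 reads). The mutants lay close together and well below the lowest control. The mean of 0.720 ± 0.291 FPKM (SD, n = 2) in mutants compared with 4.69 ± 2.24 FPKM (SD, n = 3) in the controls, a 6.51-fold difference, and the log2 change was -1.66 (SE 0.32, limma adjusted p = 0.0476). Muc1 passed the filter on low values through the controls alone, so a difference was built into its selection, and its adjusted p lay just under the threshold. The call was lost with median ratio scaling (limma adjusted p = 0.0651) and quantile normalization (limma adjusted p = 0.0821), with no trend (limma adjusted p = 0.0563) and with no filter (limma adjusted p = 0.171). It was also lost without mutant replicate 1 or 2 or control replicate 2, at limma adjusted p of 0.223, 0.262 and 0.0885.

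Lypd2 encodes a protein of the Ly6 and uPAR domain family. The mutants had 3 and 7 reads, at 0.280 and 0.659 FPKM, against 310, 60 and 70 reads in the controls, at 24.4, 5.42 and 5.66 FPKM. It had the largest fold difference among the markers with reads in both groups, 25.2-fold lower, or 11.8-fold lower without control replicate 1. The log2 change was -2.82 (SE 0.56) and just missed the threshold (limma adjusted p = 0.0516). Without control replicate 1 or 3 it passed, at log2 changes of -2.17 and -3.13 (limma adjusted p = 0.00757 and 0.0412).

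Upk3a encodes a uroplakin of bladder epithelium and marks a small set of club cell precursors near neuroendocrine cells in the mouse. It had 0 reads in both mutants and 14, 9 and 0 reads in the controls, at 0.678, 0.499 and 0 FPKM. The groups met at 0, and the gene was below the filter and not tested. With no filter its log2 change was -0.44 (SE 0.23, limma adjusted p = 0.452). Against the floor of 3 reads over the mutant group the pooled level was at least 4.53-fold lower, or 2.73-fold without control replicate 1. Of 7 urothelium genes listed, Upk3a itself was the 1 gene at 0 in both mutants. The list summed to 57.9 and 81.2 FPKM in mutants, against 16.7, 45.0 and 30.0 FPKM in the controls, so Upk3a did not follow that sum. Of the listed genes 3 were tested and 0 called. The list shares Upk1b and Upk3b with a mesothelium list, so its sum is not of urothelium alone. The mesothelium list summed to 211 and 264 FPKM in mutants, against 128, 132 and 100 FPKM in the controls.

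Per length, the order of the markers was partly kept. Aldh1a7 was the highest and Scgb3a2 the next in all 5 libraries, although both stood close in control replicate 1, at 77.6 and 75.5 FPKM. Aldh1a7 made up 61.5% and 51.9% of the summed marker level in mutants, against 37.8%, 56.8% and 56.0% in the controls. Scgb3a2 made up 32.6% and 37.0% in mutants, against 36.8%, 26.6% and 29.1% in the controls, so these shares overlapped between groups. Lypd2 made up 2.08% and 3.19% in mutants, against 11.9%, 6.67% and 7.40% in the controls, with no overlap. After these, Lypd2 came next in every control and Muc1 in both mutants. Muc1, Lypd2, Hp and Cyp2f2 lay within 1 FPKM of each other in the mutants, and their order there rests on few reads.

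Control replicate 1 was also the library richest in general epithelial RNA. A list of 26 epithelial markers summed to 412 and 418 FPKM in mutants, against 945, 487 and 368 FPKM in the controls. The mutants thus lay inside the control range, above control replicate 3. Of the 26, 10 had both mutants below all controls. Epcam, an epithelial adhesion gene, was at 38.2 and 40.1 FPKM in mutants, against 124, 66.5 and 51.4 FPKM in the controls. Cdh1, which encodes E-cadherin, was at 22.1 and 22.5 FPKM in mutants, against 51.6, 24.6 and 23.4 FPKM in the controls. Both missed the threshold (limma adjusted p = 0.181 and 0.49).

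Each marker was therefore also set against the mean log2(FPKM + 1) of the 26 epithelial markers in its own library. For Aldh1a7 this relative level was -0.22 and 0.09 in mutants, against 2.00, 1.94 and 2.22 in the controls, and the SD over the controls was 0.15, compared with 0.46 for its plain log2 level. Muc1 was at -2.84 and -2.52 in the mutants and at -1.29, -1.19 and -1.38 in the controls, with an SD over the controls of 0.10 compared with 0.58. Scgb3a2 was at -1.01 and -0.35 in mutants, against 1.96, 0.88 and 1.31 in the controls. Lypd2 was at -3.08 and -2.73 in mutants, against 0.37, -0.94 and -0.49 in the controls. These 4 genes stayed lower in the mutants, with mutant minus control differences of -2.12, -1.39, -2.06 and -2.55 and no overlap. Hp differed by -1.06, also with no overlap. The exact permutation test, two-sided, gave p = 0.1 for each of these 5, the smallest p possible. The Hp value of mutant replicate 1, at 0 reads, only mirrors the epithelial mean. Without that library the Hp difference was -0.69. Cyp2f2 and Upk3a, at 0 reads in the mutants, gave -1.83 and -0.18 (exact permutation p = 0.2 and 0.4), where the mutant values only mirror the epithelial mean. With Epcam and Cdh1 alone as the epithelial measure, Upk3a turned to 0.25 and the other differences ranged from -2.13 to -0.64.

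**Figure D2:**
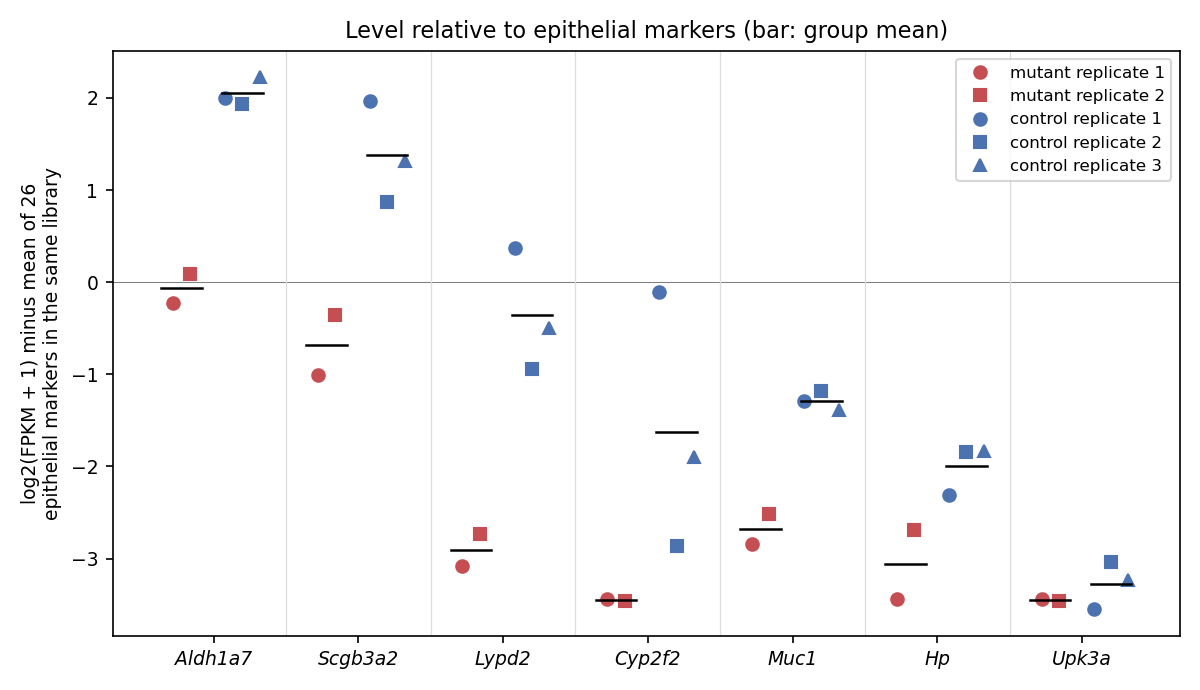
Level of each marker relative to epithelial RNA: log2(FPKM + 1) minus the mean of 26 epithelial markers in the same library, mutants left of controls, with a bar at each group mean. The controls of Aldh1a7 and Muc1 lie close together on this scale, and the mutants lie below all controls for every marker except Upk3a.

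With the epithelial mean as a covariate in the limma fit, Scgb3a2, Aldh1a7, Muc1 and Lypd2 passed, and the count of markers called was 4 in place of 2. The log2 changes of Scgb3a2 and Lypd2 were then -1.87 and -2.30 (limma adjusted p = 0.0199 and 0.011). With Ddx3y, a Y-linked gene, as the covariate the count was also 4. In limma's voom fit on recovered reads the count was 2, Aldh1a7 and Muc1 again (adjusted p = 0.00234 and 0.0413), where 2.8% of all genes were lower.

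Levels of other tissues moved with genotype as well. As background to the calls below, 1.37% of all genes tested were called lower and 0.989% higher. The 9 cartilage genes found, such as Col2a1 and Col9a1 of the tracheal rings, summed to 49.4 and 37.4 FPKM in mutants, against 118, 87.5 and 86.6 FPKM in the controls, and 4 of 6 tested were called lower. Skeletal muscle genes summed to 72.5 and 169 FPKM in mutants, against 519, 362 and 778 FPKM in the controls, with 10 of 11 called lower. Oesophagus and stomach genes summed to 49.6 and 57.4 FPKM in mutants, against 34.1, 38.8 and 30.2 FPKM in the controls. The calls did not follow that sum: of 5 tested, 2 were called lower (Barx1 and Sox21) and 1 higher. The higher one, Cldn18, is also in the distal lung list, and the median log2 change was -0.60. Distal lung genes summed to 413 and 427 FPKM in mutants, against 238, 337 and 183 FPKM in the controls, with 7 of 15 called higher. No cartilage or muscle marker found was at 0 in all mutants. The part of these shifts in tissue content in the levels of the secretory markers was not tested.

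**Figure D3:**
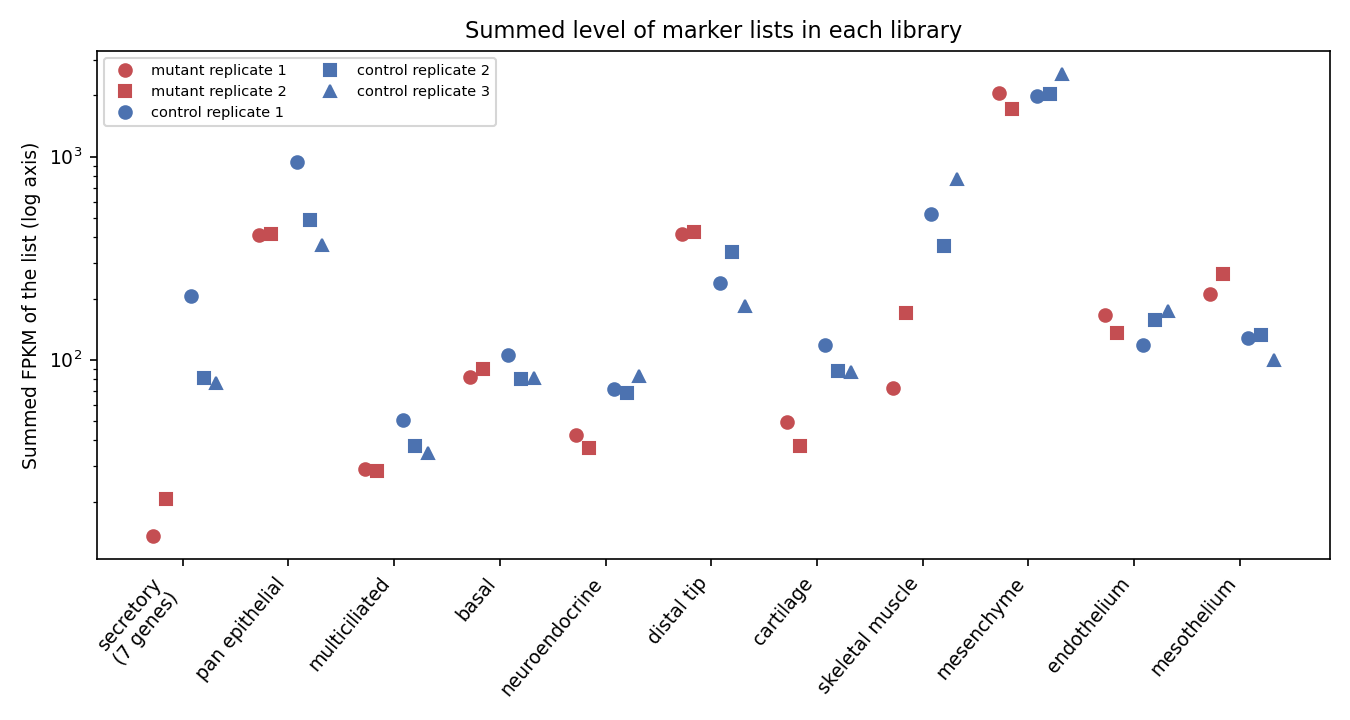
Summed FPKM of each marker list in each library on a log axis, mutants left of controls. Among the lists plotted, the secretory, neuroendocrine, multiciliated, cartilage and skeletal muscle sums are lower in both mutants than in all controls, the distal tip and mesothelium sums are higher, and the epithelial sum of the mutants lies inside the control range.

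Beyond the 8 markers, 50 other genes of club, goblet and related secretory cells were listed, of which 47 were found and 18 tested. Of these 18, 3 were lower and 0 higher, where 1.37% and 0.989% of all genes were called, and 5 of the 18 passed the filter through the controls alone. The median log2 change was -0.41. An unadjusted p under 0.05 in the lower direction was reached by 8 of the 18, compared with 12.3% of all genes tested. The list was chosen with earlier results of these data known, so its counts are a description.

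Cldn10 encodes a claudin of tight junctions and is an early marker of club cells in the mouse. It was at 0.294 and 0.197 FPKM in mutants, against 6.63, 4.07 and 4.30 FPKM in the controls, 20.4-fold lower (log2 change -2.24, limma adjusted p = 0.00644), and it passed the filter through the controls alone. Cckar encodes a receptor of cholecystokinin and was at 1.00 and 1.28 FPKM in mutants, against 22.4, 9.83 and 9.82 FPKM in the controls, 12.3-fold lower (log2 change -2.71, limma adjusted p = 0.0115). The controls of both genes were far above the mutants. Itm2a, a membrane protein gene that is also active in cartilage and muscle precursors, was at 206 and 187 FPKM in mutants, against 329, 339 and 346 FPKM in the controls (log2 change -0.78, limma adjusted p = 0.0195). Without mutant replicate 1 or mutant replicate 2, 0 of these calls stood in limma, while 4 and 6 genes of the list had an unadjusted p under 0.05.

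Cyp2s1, a cytochrome P450 gene, was at 0.514 and 0.686 FPKM in mutants, against 8.39, 2.86 and 3.62 FPKM in the controls, just short of the threshold (limma adjusted p = 0.0516). Cbr2, a carbonyl reductase gene of mouse lung, was at 0.191 and 0.385 FPKM in mutants, against 19.04, 1.85 and 3.27 FPKM in the controls (limma adjusted p = 0.151). Its controls spread as those of Cyp2f2 did, with control replicate 1 on top. Tspan8, a tetraspanin gene of several epithelia, had a log2 change of 1.78 (limma adjusted p = 0.0760), with mutants at 10.1 and 17.2 FPKM above controls at 2.95, 6.21 and 1.48 FPKM. Wfdc2, a secreted protease inhibitor gene, overlapped between groups, at 35.5 and 30.5 FPKM in mutants, against 102, 47.0 and 29.7 FPKM in the controls.

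Of the 29 listed genes below the filter, 10 had both mutants below all controls, where this held for 13.6% of all entries not tested. Named after their values were seen, Spdef, the transcription factor of goblet cells, had 4 reads in both mutants together, against 138 in all controls. The gel-forming mucin gene Muc5ac had 17 mutant reads against 485 control reads, and Krt4, a keratin gene of stratified epithelia, had 5 mutant reads against 122 control reads. Muc16, a membrane mucin gene that mesothelium also expresses, was higher in both mutants than in all controls, with 908 mutant reads against 409 control reads. The secretoglobin gene Scgb3a1 had 3 mutant reads against 4 control reads, too few for a comparison.

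**Figure D4:**
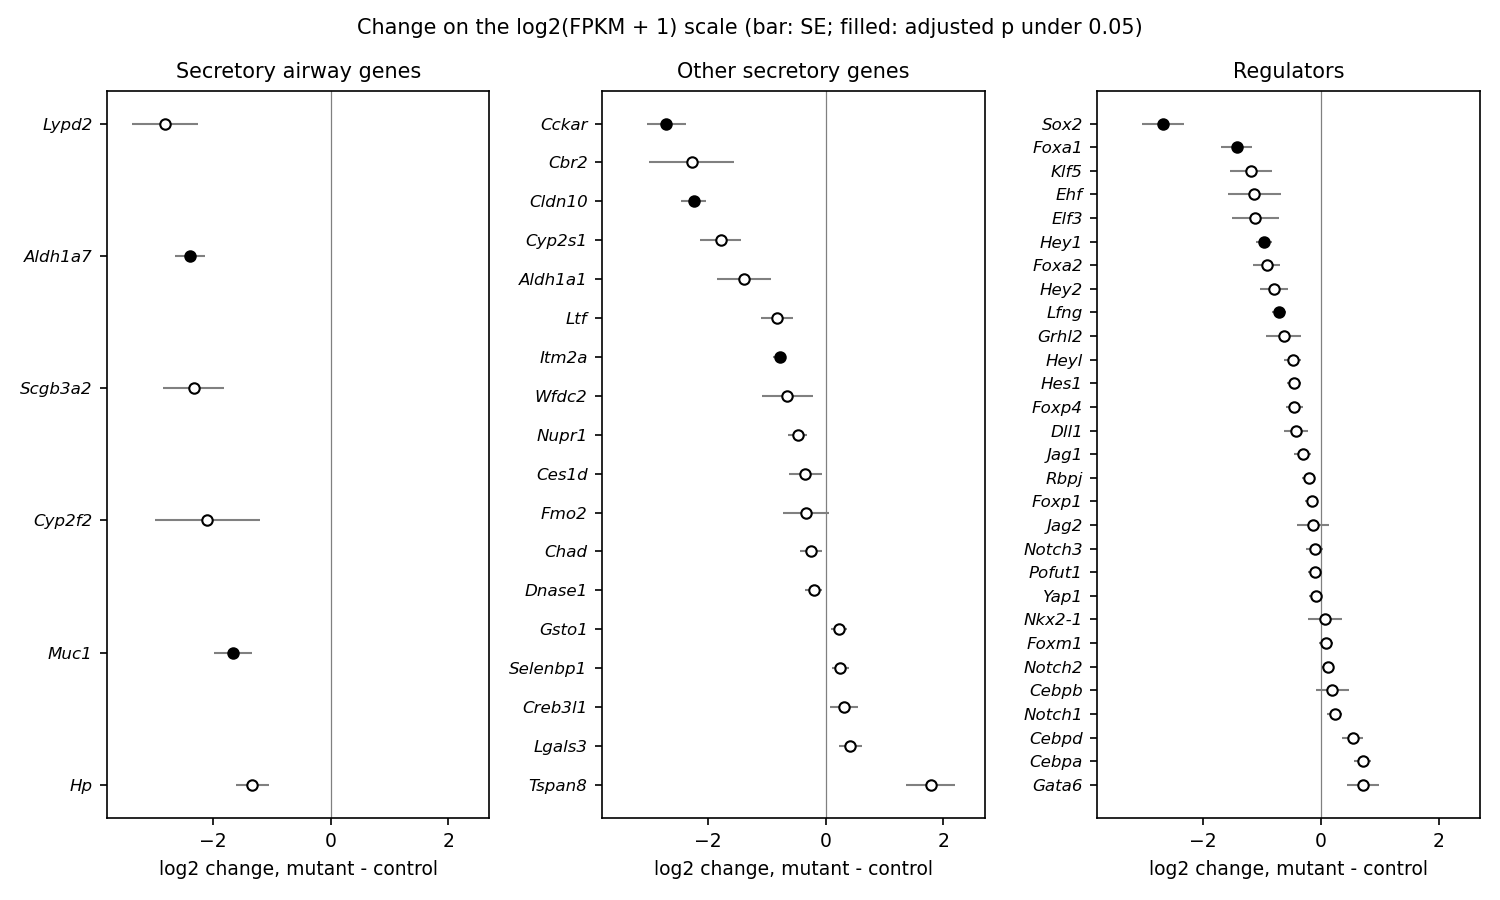
Log2 change, mutant minus control, on the log2(FPKM + 1) scale with its SE, for the 6 markers, the 18 other secretory genes and the 29 regulators tested. Filled points passed an adjusted p of 0.05; the 9 filled points all lie below 0, and Tspan8 is the largest open point above 0.

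Of 29 regulators of secretory fate, all were tested, and 4 were lower and 0 higher, where 1.37% and 0.989% of all genes were called. The median log2 change was -0.31. Both mutants were below all controls for 17 and above all controls for 4, where 24.4% and 13.2% of all genes tested were. The regulators, too, were listed with earlier results of these data known, so these counts are a description. The regulators called lower were Sox2, the factor of the conducting airway, the Notch target Hey1, the Notch modifier Lfng and the forkhead factor Foxa1. Sox2 was at 4.10 and 2.76 FPKM in mutants, against 44.3, 16.5 and 26.9 FPKM in the controls (limma adjusted p = 0.0163). Foxa1 was at 6.43 and 6.53 FPKM in mutants, against 29.5, 16.04 and 14.9 FPKM in the controls (limma adjusted p = 0.0419). Hey1 and Lfng had log2 changes of -0.97 and -0.71 (limma adjusted p = 0.0175 and 0.0383). Without mutant replicate 1 or mutant replicate 2 the count was 0 in limma, with 9 and 5 regulators at an unadjusted p under 0.05. The Notch receptors and ligands did not pass. Notch1, Notch2 and Notch3 had log2 changes of 0.23, 0.11 and -0.11, and Jag1, Jag2 and Dll1 of -0.31, -0.14 and -0.43. The Notch targets Hes1, Hey2 and Heyl, at -0.46, -0.80 and -0.48, did not pass either. Both mutants were below all controls for Jag1, Dll1, Hes1, Hey2 and Heyl, and above all controls for Notch1.

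Epithelial factors beside Foxa1 showed a wide spread in the controls. Klf5 was at 7.85 and 7.87 FPKM in mutants, against 34.5, 12.7 and 15.9 FPKM in the controls (limma adjusted p = 0.135). Elf3 was at 1.43 and 1.27 FPKM in mutants, against 8.64, 2.66 and 2.75 FPKM in the controls, and Ehf at 0.444 and 0.435 FPKM in mutants, against 5.39, 1.08 and 1.36 FPKM in the controls. Both mutants were below all controls for these 3 factors, and control replicate 1 was the highest library. The same held for Foxa2 (log2 change -0.92, limma adjusted p = 0.0833). In the other direction, Cebpa, a factor of lung epithelial maturation, was at 13.0 and 9.89 FPKM in mutants, against 6.38, 6.14 and 7.12 FPKM in the controls, just short of the threshold (log2 change 0.71, limma adjusted p = 0.0516). In limma's voom fit on recovered reads Cebpa passed, higher (adjusted p = 0.0338). Cebpd and Gata6 also had both mutants above all controls. Their log2 changes of 0.54 and 0.71 did not pass (limma adjusted p = 0.173 and 0.209).

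The 5 genes most like Scgb3a2 across the libraries were found by the root mean square difference of log2(FPKM + 1), each gene centred on its own mean, among 11878 other genes. They were Lypd2 (0.27), Myh14 (0.30), Cckar (0.33), Cbr2 (0.36) and Aldh1a7 (0.37). Of these, 2 are among the 8 markers and 2 are in the list of other secretory genes. Both lists were chosen with earlier results of these data known. Myh14 encodes a non-muscle myosin heavy chain of epithelia and was at 2.22 and 1.95 FPKM in mutants, against 27.8, 7.25 and 10.2 FPKM in the controls (limma adjusted p = 0.0593). The likeness rests on 5 libraries that share the group difference and the height of control replicate 1.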

How the data were processed

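RNA was sequenced from airway tissue of 2 mutant and 3 control mouse samples at E13.5, with groups and replicate numbers from the titles. Per the labels' protocols, an RNeasy kit gave the RNA and a SMARTER mRNA-Seq kit the libraries; a treatment text on adipogenic cell culture in the labels was not used. The authors deposited 1 table of FPKM values. The submitters' processing notes name GRCm38 and mm10. The sources used here name no aligner, counter, annotation or strand setting.

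FPKM values of all 19699 entries but 1 gave whole reads in all 5 libraries, at a relative tolerance of 1e-09 or, for the 13961 entries whose GENCODE M21 exon length was exact, 1e-06. Other lengths were the smallest whole number that gave whole reads, or for 302 entries its multiple nearest to the annotated length, so these reads may be short of a common factor. Recovered reads came to 97.5% to 97.6% of each denominator. Hp, Upk3a and Aldh1a1 were among the entries with such lengths. Positions are from GENCODE M21 (GRCm38).

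The test was limma 3.58.1 (R 4.3.3) on log2(FPKM + 1), by lmFit and trended eBayes, two-sided, with no covariate. Entries with 1 FPKM or more in at least 2 libraries were kept (12838), with Benjamini-Hochberg adjustment across all of them and a threshold of 0.05. Single values were tested by exact permutation over 10 splits. Coding sequences were aligned with Biopython 1.88. The steps were tested on simulated reads, where the share of false calls was above the threshold of 0.05, so calls just under it are uncertain. Named are the 8 markers and listed genes past the threshold or with the 4 smallest p of their list. Also named are the 5 genes most like Scgb3a2 and reference genes (Epcam, Cdh1, Aldh1a1, Prmt5). Added after their values were seen were Tspan8, Cebpa, Cebpd, Gata6, Foxa2, Klf5, Elf3, Ehf, Wfdc2, the Notch genes, Cbr2, Xist, Nkx2-1 and Ddx3y. So were genes under the filter and marker genes of other tissues. The members and lists were chosen with earlier results of these data known. Alternatives changed the pseudocount, filter, scaling, test, covariate, block and libraries.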

Additional observations from a re-analysis of the deposited data

How the results depend on the processing

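All 6 tested markers kept a negative log2 change under every alternative that kept them in the fit. The count of markers called lower, 2, was 0 with no filter in limma (5 at an unadjusted p under 0.05), 1 with median ratio scaling, with quantile normalization and with no trend, 4 with TPM without Gm23935, with the epithelial covariate and with Ddx3y as a covariate, and 6 with TPM. With TPM the median of all genes was -0.59, or -0.13 without Gm23935; relative to -0.59 the markers lay between -3.17 and -1.66. Leaving out 1 library at a time gave 0 to 4 markers (0 without either mutant, 5 at an unadjusted p in each case), 0 to 5 other secretory genes and 0 to 5 regulators. With no filter these lists gave 1 and 0 (12 and 10 at an unadjusted p under 0.05), and regulators gave 1 with TPM and 2 with no trend.

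Over all genes, 127 higher and 176 lower became 40 and 29 with no filter, 10 and 57 with TPM, and 243 and 359 with voom on recovered reads. Ddx3y as a covariate gave 74 higher, quantile normalization 115 lower and TPM without Gm23935 277 lower genes. Without 1 library the counts ranged from 1 to 120 higher and from 3 to 164 lower. Relative to epithelium, Upk3a reversed to 0.25 with Epcam and Cdh1 alone. Whether replicate numbers pair the libraries was not settled. Correlations of the deviations from the group means were -0.07 and 0.02 for numbers 1 and 2. The deviations of the 2 mutants mirror each other, so these are not separate checks. The replicate block gave 97 higher and 162 lower genes and 3 markers. Depth limits Hp, Lypd2, Cyp2f2 and Upk3a, which had 0 to 15 reads per mutant library.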
